A study of Mus musculus with 5 samples.

Results

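Collagen chains are modified and folded in the endoplasmic reticulum (ER) by a small set of enzymes and chaperones. Transcript levels of 10 of the genes for them were examined in hematopoietic stem cells (HSCs) sorted from mouse bone marrow. The genes were chosen by name: the prolyl 3-hydroxylase P3h1, the prolyl 4-hydroxylase subunits P4ha1, P4ha2 and P4hb, the lysyl hydroxylases Plod1 and Plod3, and the chaperones and folding partners Serpinh1, Crtap, Ppib and Fkbp10. All 10 were found among the 55335 genes of the table, and each is described in all 5 libraries.

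Prolyl 4-hydroxylase places the hydroxyl groups that keep the collagen triple helix stable at body temperature. Its catalytic alpha subunits (P4ha1 or P4ha2) work only in a complex with the beta subunit P4hb, which is protein disulphide isomerase and also serves in the folding of many secreted proteins. P3h1, Crtap and the proline isomerase Ppib (cyclophilin B) form a separate complex that hydroxylates single prolines, and loss of any of them causes brittle bone disease. Lysyl hydroxylases prepare lysines for sugars and crosslinks, Serpinh1 (Hsp47) holds the folded triple helix on its way out of the ER, and Fkbp10 is an isomerase that assists in crosslinking. In bone marrow the main producers of collagen are osteoblasts and stromal cells, not HSCs.

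The libraries came from mice at 3 weeks of age, all labelled as C57BL/6J. HSCs had been sorted as lineage-negative cells with Kit, Sca-1 and CD150 but without CD48, and the library names end in numbers from 80 to 90 that were read as cells per library. There were 3 wild-type libraries, and 2 carried the label RankCre-ki. The latter mice carry Cre in 1 copy of the Rank gene (Tnfrsf11a), together with a floxed and a null allele of Csf1r. The line with the null allele was maintained on C3H/HeJ according to the study, so genetic background may differ between the groups and cannot be told apart from genotype. Csf1r itself was higher in the libraries carrying the RankCre-ki label (17.5 and 6.46 TPM against 0 to 2.39 TPM in wild-type), opposite to the loss of an allele, although HSCs are not where the Cre is said to act. According to the study this Cre acts in macrophages of embryonic origin, so the animals lack those macrophages and osteoclasts while their HSCs are not the target. The comparison sets HSCs from marrow without these cells beside wild-type HSCs. The former also carry the altered Rank and Csf1r alleles themselves, so marrow and the cells' own genotype cannot be told apart. No label ties a library to a single animal or to a pool, so the spread between libraries may be partly technical.

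Values are TPM (transcripts in a fixed total), the share of a gene among the length-corrected transcripts of its library, so levels of different genes can be compared. TPM keeps no record of depth, and no counting error can be attached to a value. Wild-type replicate 1 and RankCre-ki replicate 2 share one style of library name (name series 1), and the other three libraries share another (name series 2). The library labelled RankCre-ki replicate 2 went against its label female: Eif2s3y, a Y-linked gene, was at 62.5 TPM there and Xist at 0.0229 TPM, much like the male wild-type replicate 1 (41.6 and 0.0273 TPM). In the other libraries Eif2s3y was at most 0.288 TPM. The study used a pair of tagmentation kits, in sets of the same make-up as the name series, so each series may be a preparation set, which is an inference. Name series, kit and sex thus cannot be told apart. The RankCre-ki libraries had 12801 and 16386 genes at 1 TPM or more, against 9021 to 11084 in the wild-type libraries. HSC markers were present in all libraries (Kit 20.4 to 145 TPM, Slamf1 16.5 to 41.8 TPM, Procr 11.7 to 103 TPM).

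The promoters of 9 of the 10 genes were found in RefSeq (build GRCm38.p6, from 250 bases before to 50 bases after the start site, given 5′ to 3′ along the gene). They were searched on both strands for ACGTG, the core of the hypoxia response element, and for the ER stress element, which is CCAAT followed after 9 bases by CCACG. Both motifs mark programmes in which collagen enzymes are well known to take part. ACGTG was present in promoters of 7 of the 9 genes, and in 19.6% of all 32851 promoters of this length. The ER stress element was in none of the 9 genes with these letters, and in 0.119% of all promoters. Shown are the genes on which the results below turn: P3h1 and P4hb, which were higher in RankCre-ki libraries without overlap, and P4ha1, which had the widest range of the genes never listed at 0. Capitals mark ACGTG, written as CACGT where it lies on the other strand. P3h1 has a pair of annotated start sites. The windows are chr4:119232665-119232964 and chr4:119233579-119233878 (plus strand) for P3h1, chr11:120573204-120573503 (minus strand) for P4hb and chr10:59323046-59323345 (plus strand) for P4ha1.
P3h1, first start site: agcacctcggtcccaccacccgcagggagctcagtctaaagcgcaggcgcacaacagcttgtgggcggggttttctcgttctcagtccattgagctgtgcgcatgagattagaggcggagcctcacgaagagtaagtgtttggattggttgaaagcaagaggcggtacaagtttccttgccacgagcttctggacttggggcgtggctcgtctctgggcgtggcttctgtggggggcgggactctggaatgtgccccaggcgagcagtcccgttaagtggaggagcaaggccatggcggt
P3h1, second start site: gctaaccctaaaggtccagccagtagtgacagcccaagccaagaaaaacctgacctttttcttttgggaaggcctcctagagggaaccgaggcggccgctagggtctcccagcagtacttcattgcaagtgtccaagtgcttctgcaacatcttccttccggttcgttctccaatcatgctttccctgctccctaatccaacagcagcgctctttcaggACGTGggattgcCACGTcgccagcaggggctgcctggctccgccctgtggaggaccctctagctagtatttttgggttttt
P4hb: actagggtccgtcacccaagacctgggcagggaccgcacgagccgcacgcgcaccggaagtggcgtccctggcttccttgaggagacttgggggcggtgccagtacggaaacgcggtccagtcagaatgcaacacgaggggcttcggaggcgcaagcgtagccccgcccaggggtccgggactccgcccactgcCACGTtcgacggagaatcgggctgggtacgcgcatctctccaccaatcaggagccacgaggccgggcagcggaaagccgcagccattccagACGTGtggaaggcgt
P4ha1: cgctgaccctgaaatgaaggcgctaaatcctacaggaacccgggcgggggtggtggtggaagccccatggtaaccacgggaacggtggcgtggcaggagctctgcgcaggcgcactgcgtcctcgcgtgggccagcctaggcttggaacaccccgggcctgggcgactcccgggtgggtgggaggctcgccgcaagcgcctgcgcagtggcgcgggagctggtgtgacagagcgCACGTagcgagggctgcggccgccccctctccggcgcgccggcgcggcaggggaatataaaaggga
The first P3h1 window held no ACGTG. In the second it began 31 bases before the start on the strand shown and 19 bases before it on the other. P4hb carried it from 56 bases before the start on the other strand and from 35 bases after the start on the strand shown, and P4ha1 from 16 bases before it on the other strand. A match is a description of these letters and no evidence that a factor binds there. Of the others, Ppib and P4ha2 had 2 matches each, Plod3 and Serpinh1 had 1, and Plod1 and Crtap had none.

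The 10 genes spanned more than 3 orders of magnitude in level. Ppib was highest, with a mean over the 5 libraries of 271 TPM, followed by P4hb at 118 TPM and Crtap at 35.6 TPM. Among all 13981 genes tested these means lie at the 96.5th, 91.5th and 76.3rd percentile. P4ha1 followed at 16.7 TPM, Plod3 at 7.81 TPM and P3h1 at 3.91 TPM. Fkbp10 (3.14 TPM), Plod1 (1.63 TPM) and P4ha2 (1.15 TPM) were low, and Serpinh1, a chaperone dedicated to collagen, had a mean of 0.135 TPM. The program behind these values is not stated, so a level at or near 0 may be a failed estimate and does not show that a transcript was missing. For Serpinh1 the supplement of the study lists a large mean count, at odds with the level given here. Ppib exceeded P4hb in 5 of 5 libraries with separate ranges, and P4hb exceeded Crtap in 5 of 5 with ranges that met. No later pair of neighbours kept its order in all 5 libraries, and P3h1 exceeded Fkbp10 in only 1 of 5.

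**Figure D1:**
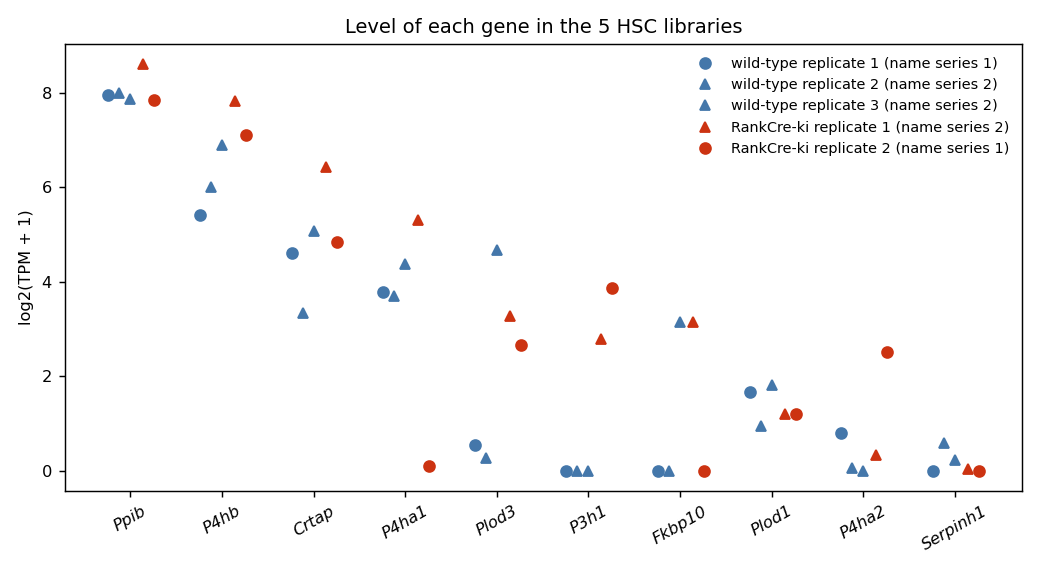
Level of the 10 genes in each library, as log2(TPM + 1), ordered by mean level. Each point is 1 library, colour gives the group and shape the name series. P3h1 is at 0 in the 3 wild-type libraries and between 2.78 and 3.87 in the RankCre-ki libraries, and P4ha1 is near 0 in RankCre-ki replicate 2 only.

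The groups were compared with limma on log2(TPM + 1) for every gene that reached 1 TPM in 2 or more libraries, with p-values adjusted by Benjamini-Hochberg over all 13981 genes. A gene was called when its adjusted p did not exceed 0.1, with a log2 fold change beyond 2 in either direction, the limits used by the study. No gene of the table was called (percent called 0), and so none of the 10 was. At an unadjusted limma p under 0.05, 6.34% of all genes were higher in RankCre-ki libraries and 0.529% were lower. Of the 10 genes, P3h1 reached that level, in the higher direction. Serpinh1 and P4ha2 were not tested, having 1 TPM in fewer than 2 libraries. The log2 fold change was above 0 for 72.3% of all genes, with a median of 0.52, so differences are best read against that value. Over the 10 genes the median difference was 0.83, and the log2 mean was higher in RankCre-ki libraries for 7 of them. With quantile normalization the median of all genes was -0.04, 48.3% of genes were above 0, and the median of the 10 was 0.32. With median-ratio scaling the same values were 0.16, 57.1% and 0.60.

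P3h1 (ENSMUSG00000028641, chromosome 4, 119232915 to 119248975, plus strand, GRCm38) encodes the hydroxylase of the 3-hydroxylation complex. It was listed at 0 in wild-type replicates 1, 2 and 3, whereas RankCre-ki replicate 1 held 5.89 TPM and replicate 2 held 13.7 TPM. The groups therefore did not overlap, and no fold can be given against a group at 0. On the log2(TPM + 1) scale the limma difference was 3.33 ± 0.89 (SE), at an unadjusted p of 0.00573 that became 0.521 after adjustment. It was 3.87 within name series 1 and 2.78 within name series 2, higher in both. The size of this difference depends on the pseudocount: it was 6.50 with 0.1 TPM added and 1.51 with 5 TPM. A gene listed at 0 in wild-type libraries could enter the test only through the RankCre-ki libraries. Of all tested genes, 1.71% were at 0 in every wild-type library and at 1 TPM or more in both RankCre-ki libraries, and P3h1 was the only such gene of the 10.

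Some markers of other cells were also higher in RankCre-ki libraries. The summed level of 13 genes of lineage cells that the sort removes was 118 to 147 TPM in wild-type and 302 and 837 TPM in RankCre-ki libraries. Most of that sum came from the globin genes Hbb-bt and Hbb-bs. Hbb-bt was at 36.2 to 124 TPM in wild-type and at 251 and 632 TPM in RankCre-ki libraries, whereas Hbb-bs overlapped. Of the 13 genes, 4 were higher without overlap, against 18.8% of all tested genes. Among the 4 was Cd48, against which the sort selects, listed at 0 in wild-type and reaching 4.92 and 5.62 TPM in RankCre-ki libraries. S100a8, a neutrophil gene, was at most 0.0677 TPM against 8.31 and 12.9 TPM, whereas its partner S100a9 was found only in wild-type replicate 1, with 2.17 TPM. Ly6g and Elane were at 0 throughout. The part of these cells in the P3h1 result was not tested, and neither was that of the larger number of genes detected. Markers of stromal cells and osteoblasts, the collagen producers of marrow, numbered 14. Sp7 was at 0 in every library, Cxcl12 reached at most 0.0310 TPM and Col1a1 at most 0.0106 TPM. Runx2, in contrast, was at 3.04 to 13.8 TPM in wild-type and at 13.6 and 16.8 TPM in RankCre-ki libraries. The summed level of the 14 was 6.87 to 20.3 TPM in wild-type and 18.9 and 56.7 TPM in RankCre-ki libraries. Of the 14, 1 was higher without overlap (Pdgfrb) and 1 lower (the scarce Cxcl12), against 18.8% and 3.71% of all tested genes. In RankCre-ki replicate 2 the sum rested largely on Dcn, at 32.6 TPM there and at most 0.121 TPM elsewhere. It rested largely on Alpl (14.6 TPM) in wild-type replicate 1, and on Runx2 in wild-type replicate 2 and RankCre-ki replicate 1. The part of stromal cells in the P3h1 result was not tested. In a bulk library more cells of a type and more RNA per cell cannot be told apart.

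The partners of P3h1 in its complex were expressed in every library. Crtap (ENSMUSG00000032431, chromosome 9, 114375134 to 114390675, minus strand) was at 23.3, 9.07 and 32.8 TPM (wild-type replicates 1 to 3) against 84.9 and 27.7 TPM (RankCre-ki replicates 1 and 2). The groups overlapped, because RankCre-ki replicate 2 lay below wild-type replicate 3. The log2 fold change was 1.30 ± 0.87 (SE), at a limma p of 0.174, and it came mostly from name series 2 (2.22 against 0.24 in series 1). Ppib (ENSMUSG00000032383, chromosome 9, 66060222 to 66066623, plus strand) was the steadiest of the 10 genes among wild-type libraries, at 247, 254 and 234 TPM, or 245 ± 9.86 TPM (SD, n = 3). RankCre-ki libraries held 390 and 229 TPM, one above and one below all wild-type libraries. The log2 fold change was 0.29 ± 0.43 (SE), at a limma p of 0.521. In wild-type libraries, with P3h1 listed at 0, the complex was represented by its partners, with 3.57 to 13.998 TPM of Crtap per 100 TPM of Ppib. In RankCre-ki libraries P3h1 stood at 6.94 and 49.3 TPM per 100 TPM of Crtap.

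Prolyl 4-hydroxylase showed a different picture. P4hb (ENSMUSG00000025130, chromosome 11, 120560298 to 120573253, minus strand) was at 41.6, 63.6 and 119 TPM in wild-type and at 228 and 136 TPM in RankCre-ki libraries, and the groups did not overlap. The means were 74.7 ± 39.8 TPM (SD, n = 3) and 182 ± 64.7 TPM (SD, n = 2), respectively. The log2 fold change was 1.36 ± 0.60 (SE), at a limma p of 0.0535 before and 0.745 after adjustment. P4hb was higher within both name series, by 1.69 and 1.38. With name series as a block its unadjusted limma p was 0.0159 (0.296 after adjustment). That p was also under 0.05 with quantile normalization, a pseudocount of 5 TPM, a minimum of 5 TPM and without wild-type replicate 3. In the other fits with both RankCre-ki libraries it ran from 0.0563 (pseudocount of 0.1 TPM) to 0.140. The latter was with median-ratio scaling, where the difference was 0.86. Without RankCre-ki replicate 1 the difference was 0.99. Without RankCre-ki replicate 2, the library at odds with its label, the differences of P3h1 and P4hb were 2.78 and 1.73. P3h1 and P4hb were the only genes of the 10 whose groups did not overlap, both higher in RankCre-ki libraries. Among all tested genes 18.8% were higher without overlap and 3.71% lower.

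P4ha1 (ENSMUSG00000019916, chromosome 10, 59323296 to 59373304, plus strand), the main catalytic subunit here, was at 12.7, 11.9 and 19.9 TPM in wild-type HSCs. It was at 38.7 TPM in RankCre-ki replicate 1, above all wild-type libraries, but at 0.0731 TPM in RankCre-ki replicate 2, below all of them. The highest value was 529 times the lowest over the 5 libraries, against 1.67 times among wild-type libraries. The log2 fold change was -1.25 ± 1.57 (SE), at a limma p of 0.452, and the direction differed between the name series (-3.68 and 1.27). P4ha2 (chromosome 11, 54100095 to 54131665, plus strand), the alternative catalytic subunit, was at 0.741, 0.0345 and 0 TPM in wild-type and at 0.264 and 4.71 TPM in RankCre-ki libraries. P4ha1 made up 94.5% to 100% of the summed P4ha1 and P4ha2 level in 4 libraries and 1.53% in RankCre-ki replicate 2. The same library had 28.5 TPM of P4hb per TPM of alpha subunit, against 3.09 to 5.97 in the other four. The lone library with almost no P4ha1 was thus the one in which P4ha2 was highest, a description of 1 library.

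**Figure D2:**
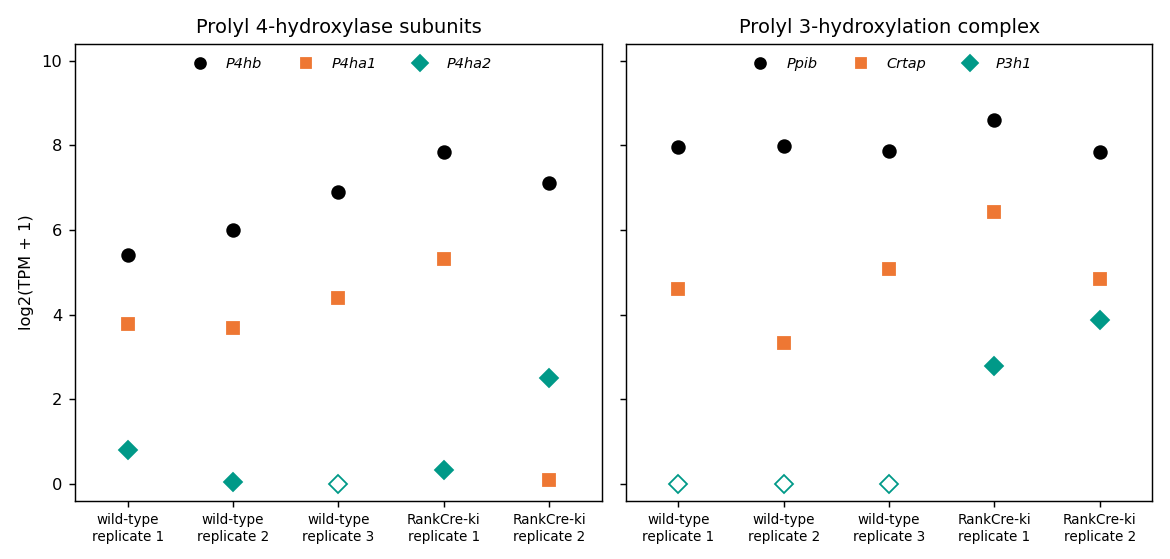
Level of the prolyl 4-hydroxylase subunits (left) and of the prolyl 3-hydroxylation complex (right) in each library, as log2(TPM + 1), with open symbols for values listed at 0. P4ha1 and P4ha2 trade places in RankCre-ki replicate 2, and P3h1 appears beside Crtap and Ppib in the RankCre-ki libraries only.

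The lysyl hydroxylases were low. Plod3 (ENSMUSG00000004846, chromosome 5, 136987019 to 136996648, plus strand), which also adds glucose to hydroxylysine, was at 0.448, 0.200 and 24.4 TPM in wild-type and at 8.64 and 5.32 TPM in RankCre-ki libraries. Wild-type replicate 3 was the highest of all, and the wild-type values differed by 122 times among themselves. The log2 fold change was 1.14 ± 1.65 (SE), at a limma p of 0.509. Plod3 shares 529 exon bases with Znhit1 on the opposite strand, which was at 67.9 to 106 TPM, and no source says that the authors used strand. Plod1 (chromosome 4, 147909753 to 147936767, minus strand), which acts on lysines within the helix, was at 2.15, 0.921 and 2.51 TPM in wild-type and at 1.31 and 1.28 TPM in RankCre-ki libraries. It was the only gene of the 10 with a lower value within both name series (-0.46 and -0.17), and its log2 fold change was -0.27 ± 0.89 (SE), at a limma p of 0.770.

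The remaining chaperones were at or near 0 in most libraries. Fkbp10 (chromosome 11, 100415697 to 100424824, plus strand) was at 0, 0 and 7.89 TPM in wild-type and at 7.82 and 0 TPM in RankCre-ki libraries, so that 1 library of each group carried it, both of name series 2. Its log2 fold change was 0.52 ± 1.37 (SE), at a limma p of 0.714. It shares 193 exon bases with Nt5c3b on the opposite strand, which was at 53.6 to 161 TPM. Serpinh1 (chromosome 7, 99345376 to 99353239, minus strand) was at 0, 0.496 and 0.160 TPM in wild-type and at 0.0195 and 0 TPM in RankCre-ki libraries. It was under 1 TPM in every library, and the same limit on values near 0 applies to it. The supplement of the study lists Serpinh1 with a large mean count, at odds with these TPM values. Ppib shares 825 exon bases with Snx22 on the opposite strand, which was at 0 in all libraries.

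**Figure D3:**
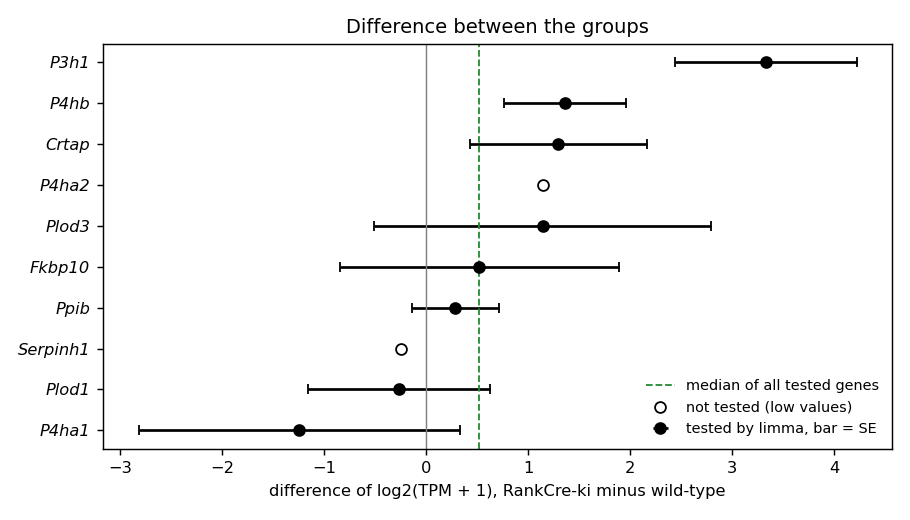
Difference of log2(TPM + 1) between RankCre-ki and wild-type libraries for the 10 genes. Filled points are limma estimates with bars of 1 SE, open points are genes not tested, and the dashed line is the median of all tested genes (0.52). P3h1 lies at 3.33, and of the tested genes only P3h1 and P4hb have bars wholly above the dashed line.

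Within the name series the 10 genes did not move as a block. Higher values in RankCre-ki libraries within both series were found for 5 genes (P3h1, P4ha2, P4hb, Plod3 and Crtap) and lower values within both for 1 (Plod1). P4ha1 and Ppib had opposite signs in the series, and Fkbp10 and Serpinh1 were at 0 in both libraries of series 1. The summed level of the 10 genes was 328, 340 and 441 TPM in wild-type and 765 and 418 TPM in RankCre-ki libraries, which overlap. Ppib alone made up 75.3%, 74.7% and 53.1% of that sum in wild-type and 51.0% and 54.7% in RankCre-ki libraries.

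**Figure D4:**
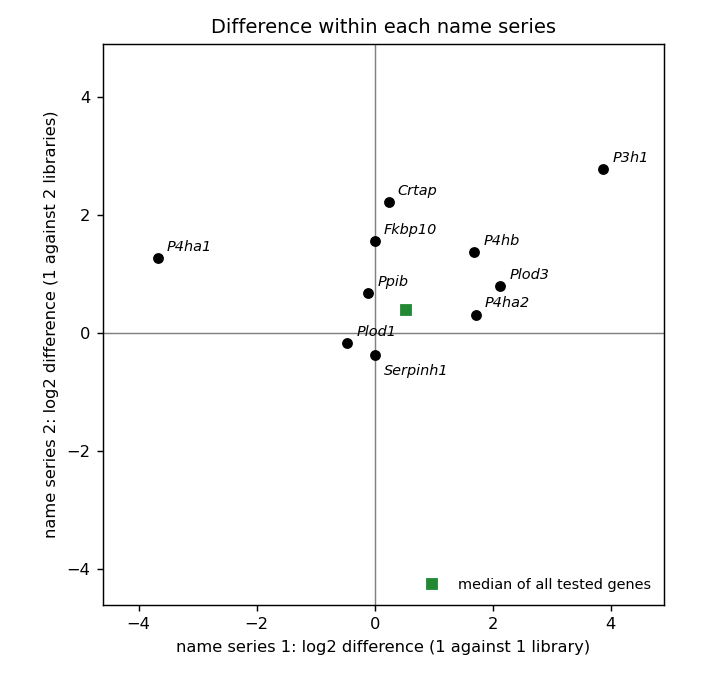
Difference of log2(TPM + 1) between RankCre-ki and wild-type libraries within name series 1 (horizontal) and within name series 2 (vertical), 1 point per gene, with the median of all tested genes as a square. P3h1 is high on both axes (3.87 and 2.78), and P4ha1 lies at -3.68 and 1.27.

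Other enzymes of the same families were examined next (13 genes, of which 10 were tested and none was called). Among the relatives of P3h1, P3h2 and P3h4 were higher in RankCre-ki libraries without overlap and P3h3 was not. P3h2, a 3-hydroxylase known for basement membrane collagen, was listed at 0 in the 3 wild-type libraries but reached 2.17 and 9.62 TPM in RankCre-ki libraries. Its difference was 2.54 ± 0.80 (SE), at a limma p of 0.0133 before and 0.521. after adjustment P3h4, a non-catalytic partner of P3h3, was at 0, 0.470 and 0 TPM against 3.01 and 4.92 TPM, with a difference of 2.10 ± 0.72 (SE), at a limma p of 0.0202. P3h3, in turn, was at 0.364, 0.465 and 19.5 TPM against 5.57 and 9.25 TPM, and its groups overlapped. These relatives were picked out after their values were seen, except P3h2. Colgalt1, which adds galactose to hydroxylysine, was at 11.99 to 16.3 TPM in wild-type and at 38.7 and 23.4 TPM in RankCre-ki libraries. With P3h2, P3h4 and the scarce P4ha3 (at most 0.985 TPM), 4 of the 13 genes were higher without overlap. Among all tested genes this share was 18.8%. The highest genes of the list were the ER isomerases Ppic and Fkbp11. Ppic was at 106 to 203 TPM in wild-type and at 136 and 20.1 TPM in RankCre-ki libraries, with a log2 fold change of -1.33 ± 0.81 (SE), at a limma p of 0.140, the smallest among the lower genes. Fkbp11 was at 37.3 to 67.6 TPM against 47.9 and 15.2 TPM.

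Of 7 prolyl hydroxylases of oxygen sensing and genes of ascorbate supply, 5 were tested and none was called, and 4 of the 7 were higher without overlap (18.8% of all tested genes). P4htm, an ER membrane hydroxylase that acts on hypoxia-inducible factor, was listed at 0 in wild-type replicates 1, 2 and 3 but reached 18.3 and 2.90 TPM in RankCre-ki libraries. Its difference was 3.12 ± 0.97 (SE), at a limma p of 0.0123 before and 0.521 after adjustment. Like P3h1, it could enter the test only through the RankCre-ki libraries. Egln2 (PHD1) was the highest, at 8.34 to 18.5 TPM in wild-type and at 26.9 and 41.1 TPM in RankCre-ki libraries. Egln3 had the smallest p among the lower genes of this list, with a log2 fold change of -0.33 and a limma p of 0.769.

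General ER chaperones and disulphide enzymes serve all secreted proteins, and all 16 listed genes were tested. None was called, and 10 had a log2 fold change above 0, with a median of 0.35. Pdia3 and Hspa5 (BiP) were highest, and Hspa5 was at 231 to 425 TPM in wild-type and at 408 and 232 TPM in RankCre-ki libraries, a log2 fold change of 0.01. Sdf2l1, an ER quality control factor, was the 1 gene lower without overlap, at 51.8 to 110 TPM against 11.2 and 37.0 TPM. Its log2 fold change was -1.84 ± 0.73 (SE), at a limma p of 0.0354. None of the 16 was higher without overlap. Among all tested genes 18.8% were higher without overlap and 3.71% lower. Pdia6, a close relative of P4hb, had the smallest p among the higher genes, with a log2 fold change of 1.31 ± 0.80 (SE), at a limma p of 0.139.

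Export of procollagen from the ER needs enlarged COPII carriers. Of 13 genes of this step 12 were tested and none was called, with a median log2 fold change of 0.54. Without overlap, 4 of the 13 were higher (Preb, Klhl12, Mia2 and Sec24d) and 1, Trappc2, was lower. Among all tested genes 18.8% were higher without overlap and 3.71% lower. The highest wild-type and lowest RankCre-ki values lay close for Mia2 (14.4 and 15.3 TPM) and Sec24d (15.5 and 16.7 TPM). For Preb they were 95.1 and 95.6 TPM. Sec13 and Sar1b, a coat protein and a GTPase of these carriers, were highest, with 65.3 to 126 TPM of Sec13 in wild-type and 132 and 99.6 TPM in RankCre-ki libraries. Preb, which activates Sar1, was at 0.590, 2.54 and 95.1 TPM in wild-type and at 108 and 95.6 TPM in RankCre-ki libraries, and its limma p was 0.0538. Trappc2, a tethering factor used in procollagen export, was at 44.9 to 140 TPM against 18.6 and 9.30 TPM. Its log2 fold change was -2.34 ± 0.76 (SE), at a limma p of 0.0152.

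The substrates themselves were scarce. Of 44 collagen chain genes, 29 were under 1 TPM in every library and 8 were at 0 in all, among them Col3a1. Only 5 were tested and none was called. Col4a1, a basement membrane chain, was highest, at 0.120 to 21.5 TPM in wild-type and at 8.75 and 18.6 TPM in RankCre-ki libraries. Col16a1 followed, at 0 to 15.2 TPM against 5.40 and 1.16 TPM, with the smallest limma p among the lower genes (0.652), and Col12a1 had the smallest among the higher ones (0.562). Of 14 genes of extracellular processing and crosslinking, 7 were under 1 TPM in every library and 3 were tested (Bmp1, Adamts3 and Furin), none of them called. Bmp1, which removes the C-terminal propeptide, was at 0.210 to 0.758 TPM in wild-type and at 3.35 and 3.18 TPM in RankCre-ki libraries. Its limma p was 0.0939, and it could enter the test only through the RankCre-ki libraries. Furin, a general proprotein convertase, was at 1.11 to 5.08 TPM against 2.48 and 2.98 TPM.

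**Figure D5:**
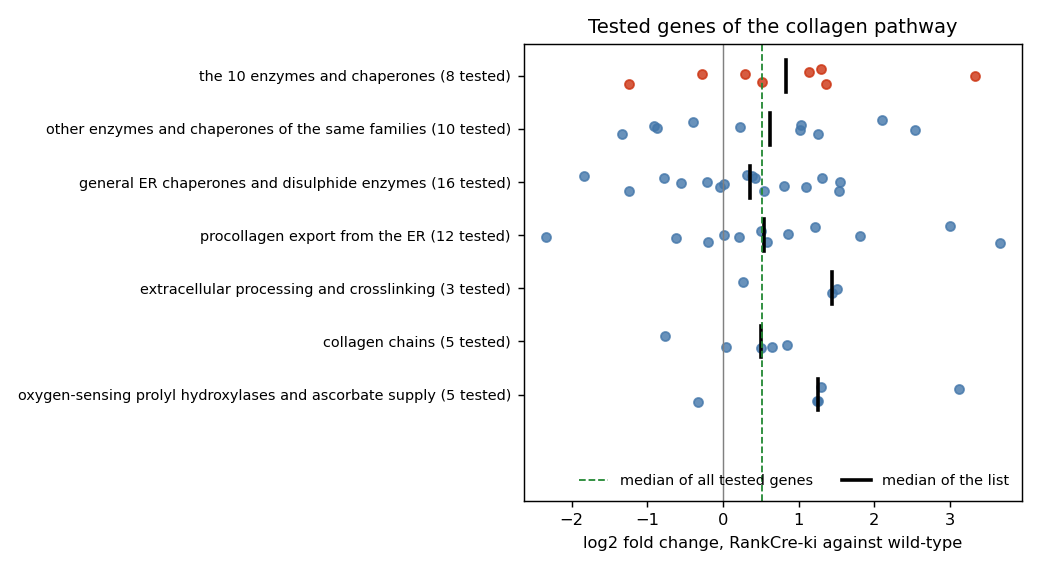
Log2 fold changes of the tested genes of each list, 1 point per gene, with a black bar at the median of the list and a dashed line at the median of all tested genes (0.52). Apart from the lists of cell markers, the list medians run from 0.35 (general ER chaperones) to 1.44 (extracellular processing, 3 genes), and no point passed the test. Medians of the cell marker lists lay between -0.056 (endothelial markers) and 2.48 (lineage cells excluded by the sort).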

How the data were processed

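RNA from small pools of sorted HSCs was reverse transcribed with template switching, amplified and tagmented. The deposited values are TPM per gene in 1 table of 55427 rows, made by the authors. The program that produced the TPM is not given in the sources used here. For their own test the authors used gsnap, build mm10 and featureCounts 2.0.1, and the submitters' processing notes name bcl2fastq 2.20.0. The 92 spike-in rows were left out. Each library sums to 1000000 TPM, so depth is unknown and precision can be judged only by how far libraries differ, and overlapping genes or paralogs may exchange signal.

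Groups and replicate numbers came from the sample titles and labels. Values were transformed to log2(TPM + 1), which understates changes of low genes, and 13981 genes that reached 1 TPM in 2 or more libraries were compared by limma 3.58.1 under R 4.3.3 (lmFit, eBayes with trend, two-sided, no covariate), after a check on simulated data. P-values were adjusted over all tested genes. Tables and plots were made with Python 3.11.15. Positions were taken from GENCODE M21 (GRCm38). The alternatives were another pseudocount, filter, scaling or block, and each library left out. The 10 genes and the 12 other lists were chosen with earlier results of these data known. Named from each pathway list were the 2 genes with the highest mean and, in each direction, the tested gene with the smallest p; other genes were named after their values were seen or as cell markers.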

Additional observations from a re-analysis of the deposited data

Results flagged for a closer look

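P4ha1, the main catalytic subunit of prolyl 4-hydroxylase in these cells, differed between the groups in opposite directions in the name series. Within name series 1 the RankCre-ki library was lower by 3.68 (log2 difference -3.68), and within name series 2 it was higher by 1.27. The RankCre-ki library of series 1 lay below its wild-type library and that of series 2 above both of its own. This difference between the series was not tested, and series 1 holds only 1 library of each group.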

How the results depend on the processing

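The number of genes called was 0 under the other pseudocounts, filters and scalings, without the trend, with name series as a block and at the other adjusted-p and fold limits. Leaving out 1 library gave 0 to 304 called genes (1 without wild-type replicate 1 and 304 without RankCre-ki replicate 1) and 0 to 1 of the 10 genes, which was P3h1 without RankCre-ki replicate 1 (difference 3.87, adjusted limma p of 0.0442). In that fit the lone RankCre-ki library is assumed to vary like wild-type libraries, in which P3h1 is at 0 throughout. P3h2 was called there too, at a difference of 3.41 and an adjusted p of 0.0439. Over all alternatives the adjusted p of P3h1 ran from 0.0442 to 0.99955 and that of P4hb from 0.296 to 0.99955.

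With the replicate number as a block, 1 gene of the table was called and none of the 10, P3h1 had an unadjusted limma p of 0.0463, and wild-type replicate 3, the only library with its number, did not contribute to the difference. Deviations from the group means of same-numbered libraries correlated at -0.380 and -0.195, so the libraries share only a number. The crossed pairing is contained in the block by name series.

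Genes of the 10 that were higher without overlap numbered 2 to 5 when 1 library was left out. They were 4 without wild-type replicate 3 and 5 without RankCre-ki replicate 2, and lower ones numbered 0 to 2. Of all 13981 tested genes, 4573 and 4719 were higher without overlap in those fits, against 2633 with all 5 libraries. Lower ones among all genes numbered 791 to 1724 when 1 library was left out, against 519. The number lower among the 10 was 1 with median-ratio scaling (1241 of all genes) and 1 with quantile normalization (1353 of all genes), which was Plod1 in both. The direction turned for Plod3 with quantile normalization (-0.048) and for Ppib with median-ratio scaling (-0.22). With 1 library left out the difference ran from -3.85 to 1.36 for P4ha1, positive only without RankCre-ki replicate 2, from -0.10 to 0.67 for Ppib and from -1.05 to 2.09 for Fkbp10. For Plod3 it ran from 0.36 to 2.57 (without wild-type replicate 3). For Crtap it ran from 0.51 (without RankCre-ki replicate 1) to 2.09 (without RankCre-ki replicate 2). The median over the 10 genes ran from 0.20 (without RankCre-ki replicate 1) to 1.40 (without RankCre-ki replicate 2). It fell below the median of all tested genes when RankCre-ki replicate 1 was dropped (0.20 and 0.61). The same held on dropping wild-type replicate 1 (0.395 and 0.505) or replicate 2 (0.337 and 0.403). It stayed above on dropping wild-type replicate 3 (1.29 and 0.65) or RankCre-ki replicate 2 (1.40 and 0.58). At an unadjusted p under 0.05, 886 genes were higher and 74 lower, against 637 and 330 with median-ratio scaling and 471 and 176 with quantile normalization. The cause of these changes was not tested. Plod1 has no value with a minimum of 5 TPM. Depth is unknown from TPM, so a value listed at 0 sets no upper limit.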

Other observations

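Some genes of the lists reached 1 TPM in 1 library only. In RankCre-ki replicate 2, Dcn, a matrix proteoglycan, was at 32.6 TPM and Col6a3, a chain of type VI collagen, at 11.6 TPM, while the partner chain genes Col6a1 and Col6a2 were at 0 and 0.0202 TPM there. In wild-type replicate 1 the crosslinking enzyme Lox was at 6.33 TPM and the osteoblast enzyme Alpl at 14.6 TPM, and both were listed at 0 in the other four libraries. Of 7 macrophage markers, Adgre1 and Cd5l were at 0 in every library, but others were not. Cd68 reached 38.1 TPM among wild-type and 46.4 TPM among RankCre-ki libraries. C1qb was found in 1 library of each group (11.8 and 5.65 TPM), and Csf1r was higher in RankCre-ki libraries without overlap. For the sum over all 7, wild-type libraries spanned 2.77 to 44.3 TPM, whereas RankCre-ki libraries held 36.0 and 53.3 TPM. The summed level of 7 endothelial markers overlapped between the groups, at 66.8 to 142 TPM and at 101 and 58.7 TPM. These genes were named after their values were seen.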
